A study of Mus musculus with 15 samples.

Results

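The genes described here are 10 regulators that act back on Wnt signalling: Notum, Dkk2, Dkk3 and Wif1, which are secreted, Apcdd1 and Tnfrsf19, which sit in the membrane, Axin2, Nkd1 and Nkd2, which act in the cytoplasm, and Sp5, a nuclear factor. They were chosen by name for this function, with earlier results of these data known, and are 10 of the 43629 genes in the count table. RNA of mouse small intestinal organoids was sequenced to ask how an endogenous Ptprk-Rspo3 rearrangement compares with loss of Apc. All lines were of C57B6/129 strain. WT comprised 5 libraries kept in ENR (EGF, Noggin and RSPO1): the Apc flox/flox lines numbered 1, 2, 5 and 6, in which the floxed alleles were still whole, and 1 dox-naive library (NAIVE) of the inducible Cas9 organoids. Apc comprised 4 libraries of Apc delta/delta organoids with the same line numbers, kept in EN, the medium without RSPO1. P-Rspo3 comprised 4 libraries (EN15d, EN4d, EN_M and EN_F) in EN, from R26-rtTA/c3GIC9 bi-transgenic organoids. These carry guides against Ptprk and Rspo3 and doxycycline-regulated Cas9. The paper describes them as treated with doxycycline to induce the rearrangement and grown on after RSPO1 was withdrawn. These P-Rspo3 cultures grew out as mixed clones and not as 1 clone, and only NAIVE shares their transgenic background among the WT libraries. Medium and genotype cannot be told apart in any comparison with WT. Doxycycline treatment likewise goes with P-Rspo3, since NAIVE is dox naive and none is described for the flox lines. Apc and P-Rspo3 were both in EN. No label says which P-Rspo3 libraries came from separate cultures or animals, so the p-values measure the spread between these libraries, which may in part be technical.

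Wnt ligands stabilise beta-catenin, which enters the nucleus and drives target genes with the TCF/LEF factors, and R-spondins raise the number of Wnt receptors at the cell surface by removing the ligases Rnf43 and Znrf3. Apc is a part of the complex that destroys beta-catenin, so its loss activates the pathway without ligand. In the crypt of the intestine many of the target genes are themselves inhibitors of the pathway, at the level of the ligand, the receptor, the destruction complex or the nucleus.

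Promoter sequences are printed for 5 of these genes, since the members differ in whether the letters that TCF/LEF factors recognise lie near the start of transcription. RefSeq (build GRCm38.p6) held windows for 7 of the 10 genes, with 250 bases before and 50 bases after the start, and 8 windows in all, since Tnfrsf19 has a second start. Notum, Dkk3 and Apcdd1 have no window. Each sequence runs 5′ to 3′ on the strand of the gene, and capitals mark CTTTGA or CTTTGT, or their reverse complements TCAAAG and ACAAAG, with no overlap between matches. They lie at chr2:70474673-70474972 (Sp5, plus strand), chr3:132085042-132085341 (Dkk2, plus strand), chr14:61037938-61038237 (Tnfrsf19, inner start, minus strand), chr11:108920099-108920398 (Axin2, plus strand) and chr8:88527383-88527682 (Nkd1, plus strand). The Nkd1 window belongs to an internal RefSeq start that lies downstream of the first start in the GENCODE gene, around which no sequence was examined.
Sp5: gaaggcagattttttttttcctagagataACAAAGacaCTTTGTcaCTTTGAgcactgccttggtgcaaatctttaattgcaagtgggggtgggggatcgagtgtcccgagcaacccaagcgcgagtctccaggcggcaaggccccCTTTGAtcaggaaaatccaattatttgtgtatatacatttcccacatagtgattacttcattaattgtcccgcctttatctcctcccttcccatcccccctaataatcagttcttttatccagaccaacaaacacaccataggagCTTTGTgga
Dkk2: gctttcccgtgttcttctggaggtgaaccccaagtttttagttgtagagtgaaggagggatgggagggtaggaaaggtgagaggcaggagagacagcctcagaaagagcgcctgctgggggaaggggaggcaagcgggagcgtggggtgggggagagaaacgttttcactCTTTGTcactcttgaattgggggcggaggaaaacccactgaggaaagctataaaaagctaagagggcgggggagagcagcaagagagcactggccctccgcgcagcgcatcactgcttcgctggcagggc
Tnfrsf19: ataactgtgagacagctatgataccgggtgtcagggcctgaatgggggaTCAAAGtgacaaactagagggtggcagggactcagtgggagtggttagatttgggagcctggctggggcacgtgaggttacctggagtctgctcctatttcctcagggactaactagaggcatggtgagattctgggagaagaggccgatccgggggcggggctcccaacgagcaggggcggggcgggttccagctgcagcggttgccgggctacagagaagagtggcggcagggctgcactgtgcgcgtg
Axin2: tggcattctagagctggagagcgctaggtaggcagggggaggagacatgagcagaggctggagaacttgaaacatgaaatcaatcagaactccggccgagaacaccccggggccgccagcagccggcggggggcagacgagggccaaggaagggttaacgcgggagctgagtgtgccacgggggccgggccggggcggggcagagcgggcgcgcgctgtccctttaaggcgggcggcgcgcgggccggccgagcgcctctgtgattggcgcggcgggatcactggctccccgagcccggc
Nkd1: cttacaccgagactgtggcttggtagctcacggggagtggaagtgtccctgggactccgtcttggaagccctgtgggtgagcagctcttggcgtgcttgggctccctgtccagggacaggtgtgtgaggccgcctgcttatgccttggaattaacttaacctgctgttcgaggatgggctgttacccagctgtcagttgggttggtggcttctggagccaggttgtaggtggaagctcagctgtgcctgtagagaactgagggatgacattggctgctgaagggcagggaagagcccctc

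The Sp5 window held 5 matches, of which 4 lie upstream of the start, at 221, 212, 204 and 104 bases, and 1 lies 41 bases downstream. Dkk2 held 1 match 80 bases upstream, and the inner window of Tnfrsf19 held 1 match 201 bases upstream. The letters did not occur in the windows of Axin2, Nkd1, Nkd2 and Wif1 or in the outer window of Tnfrsf19. Of 32851 RefSeq windows of this length, 31.2% held at least 1 match, 6.68% held at least 2 and 12 windows (0.0365%) held at least 5. A match is only a run of letters, and whether any factor binds there was not tested.

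Across the 13 libraries the Apc group stood apart for these genes, as the plot of CPM (counts scaled to library size after TMM normalization) by library shows. Of the 10 regulators, 9 were tested in Apc against WT and all 9 rose, with fitted log2 fold changes from 1.97 (Axin2) upward, against a background of 12.2% of the 16749 genes tested called higher. A gene was called at an adjusted p under 0.05 (edgeR's quasi-likelihood test, Benjamini-Hochberg over all genes tested) and an absolute log2 fold change above 1, and was tested if it reached 0.1 FPKM (a level scaled to gene length and depth) in at least 4 libraries. Dkk2 and Dkk3 passed this filter through the Apc libraries alone and Wif1 had only 2 WT libraries over it, so these 3 entered the test by being high in Apc. The other 6 passed in every library of both groups. In all 9 genes each Apc library was above each WT library, which held for 27.3% of the genes tested. Nkd2 was not tested, since none of its libraries reached 0.1 FPKM. In Apc against P-Rspo3 the same 9 genes rose, against a background of 13.4% of 16456 genes called higher, and each Apc library was above each P-Rspo3 library (28.0% of genes). In P-Rspo3, no library reached the filter for Dkk2, Dkk3 and Wif1, and 1 did for Nkd1. This comparison shares its Apc libraries with the other and is not independent of it.

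**Figure D1:**
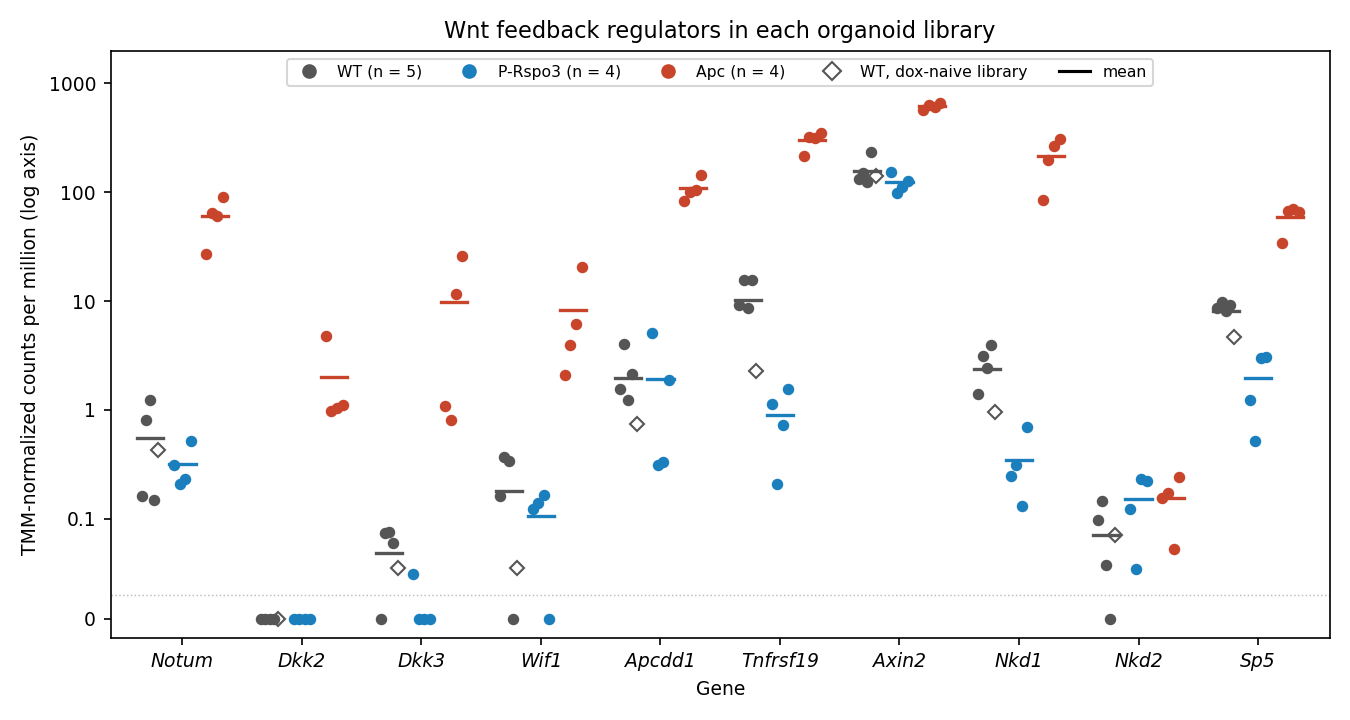
TMM-normalized CPM of the 10 regulators in each library, on a log axis with 0 drawn below the dotted line. Points are libraries, lines are group means, and the open diamond is the NAIVE library. The 4 Apc libraries lie above every WT and P-Rspo3 library for all genes except Nkd2, whose groups overlap.

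Among the secreted inhibitors, Notum (ENSMUSG00000042988, chr11:120653788-120661175, minus strand) encodes the carboxylesterase that strips the lipid from Wnt ligands. It had 0.160, 0.803, 1.24, 0.148 and 0.425 CPM in WT lines 1, 2, 5 and 6 and NAIVE, 0.308, 0.208, 0.230 and 0.513 in P-Rspo3 EN15d, EN4d, EN_M and EN_F, and 27, 64.1, 59.9 and 89.95 in Apc lines 1, 2, 5 and 6. The Apc libraries all lay above the others, while WT and P-Rspo3 overlapped. The log2 fold change was 6.79 (SE 0.52, adjusted p = 1.48e-06, edgeR) in Apc against WT and 7.57 (SE 0.47, adjusted p = 1.87e-06) in Apc against P-Rspo3. An antisense gene, Notumos, overlaps Notum and had 90 to 475 counts in Apc and at most 4 elsewhere. The strand setting of the counting is not given in the sources used here, so reads of the pair cannot be told apart.

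Dkk2 (ENSMUSG00000028031, chr3:132085292-132180304, plus strand), an antagonist of the Wnt co-receptors Lrp5 and Lrp6, had no count in any WT or P-Rspo3 library. Apc lines 1, 2, 5 and 6 had 188, 34, 39 and 46 counts, or 4.81, 0.971, 1.03 and 1.11 CPM. Line 1 was far above the other Apc lines. With a floor of 3 counts per library, Dkk2 was at least 17.6-fold higher in Apc than in WT and at least 18-fold higher than in P-Rspo3. Without Apc line 1 these bounds were 9.19-fold and 9.44-fold. The call in edgeR (adjusted p = 0.000703 against WT and 0.00170 against P-Rspo3) did not rest on line 1, since without it the adjusted p was 7.55e-05 against WT and 0.000196 against P-Rspo3.

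Dkk3 (ENSMUSG00000030772, chr7:112116017-112159057, minus strand), a more distant relative of Dkk2, had 0 to 2 counts in WT libraries and 1 count in EN15d with none in the other P-Rspo3 libraries. In Apc it had 42, 28, 441 and 1067 counts in lines 1, 2, 5 and 6, or 1.08, 0.800, 11.7 and 25.8 CPM. Lines 5 and 6 were thus an order of magnitude above lines 1 and 2. The ratio of summed counts, scaled to library size, was 217 for Apc over WT (95% exact interval 105 to 540, 1578 against 7 counts) and 1226 for Apc over P-Rspo3 (220 to 48451, 1578 against 1 count), and these intervals cover counting error only. Line 6 held 1067 of the 1578 counts, and without it the ratios were 96.1 (46.3 to 240.2) and 544 (97.1 to 21513). Without EN15d, P-Rspo3 had no count, and the bound against it was at least 89.5-fold. The test called both differences (adjusted p = 0.000356 and 0.00123, edgeR), and it called both with any library left out. The call against P-Rspo3 was lost with limma on log2(FPKM + 1), with a difference of 1.40 and an adjusted p of 0.0591.

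Wif1 (ENSMUSG00000020218, chr10:121033960-121100650, plus strand) encodes a secreted protein that binds Wnt ligands. It was at 0 to 0.365 CPM in WT and 0 to 0.164 CPM in P-Rspo3, and reached 2.07, 3.91, 6.16 and 20.6 CPM in Apc lines 1, 2, 5 and 6. The groups of low libraries overlapped, and line 6 was the highest by a wide margin. Wif1 rose by a log2 fold change of 5.52 (SE 0.87, adjusted p = 0.000254, edgeR) over WT and 6.18 (SE 0.93, adjusted p = 0.000374) over P-Rspo3. Without line 6 of Apc the values were 4.49 and 5.17, both still called.

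Of the membrane proteins, Apcdd1 (ENSMUSG00000071847, chr18:62922231-62961179, plus strand) binds Wnt ligands and their co-receptor. It had 1.54, 4.05, 1.24, 2.13 and 0.743 CPM in WT lines 1, 2, 5 and 6 and NAIVE, 5.09, 0.312, 0.328 and 1.87 in EN15d, EN4d, EN_M and EN_F, and 82.7, 101.6, 104.6 and 145 in Apc lines 1, 2, 5 and 6. Within P-Rspo3 the libraries differed more than the groups did, with EN15d above and EN4d and EN_M below every WT library. Apcdd1 rose by 5.79 in log2 (SE 0.37, adjusted p = 3.94e-07, edgeR) from WT to Apc and by 5.80 (SE 0.69, adjusted p = 8.54e-05) from P-Rspo3 to Apc, and without EN15d the second difference was 7.04. The difference between P-Rspo3 and WT was -0.02 (SE 0.77, adjusted p = 1.00) and turned to -1.21 without EN15d and to 0.42 without WT line 2, so the data give it no direction.

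Tnfrsf19 (ENSMUSG00000060548, chr14:60963875-61046490, minus strand), a receptor of the tumour necrosis factor family also called Troy, marks crypt stem cells and dampens Wnt signals at the receptor. It had 9.25, 15.7, 8.58, 15.5 and 2.27 CPM in WT lines 1, 2, 5 and 6 and NAIVE, 1.14, 0.208, 0.722 and 1.54 in EN15d, EN4d, EN_M and EN_F, and 216, 324, 318 and 349.6 in Apc lines 1, 2, 5 and 6. The 3 groups did not overlap, and NAIVE lay between the flox lines and P-Rspo3. The log2 fold change was 4.86 (SE 0.43, adjusted p = 3.9e-06, edgeR) in Apc against WT and 8.38 (SE 0.40, adjusted p = 4.51e-07) in Apc against P-Rspo3.

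In the cytoplasm, Axin2 (ENSMUSG00000000142, chr11:108920349-108950783, plus strand) is the inducible scaffold of the beta-catenin destruction complex. It had 133, 149.9, 125, 232 and 140.1 CPM in WT lines 1, 2, 5 and 6 and NAIVE, 154, 99.05, 112 and 128 in EN15d, EN4d, EN_M and EN_F, and 575, 638, 603 and 658 in Apc lines 1, 2, 5 and 6. WT line 6 stood above the other WT libraries, and even so lay well below each Apc library. Axin2 rose by 1.97 in log2 (SE 0.16, adjusted p = 2.56e-06, edgeR) from WT to Apc and by 2.32 (SE 0.13, adjusted p = 1.27e-06) from P-Rspo3 to Apc. This was the smallest fitted fold change of the 9 genes called, in the gene with the highest level in each group. An antisense gene, Gm11670, overlaps Axin2 with 51 to 82 counts in Apc and 3 to 15 elsewhere, against 2857 to 27186 counts of Axin2 itself.

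Nkd1 (ENSMUSG00000031661, chr8:88521354-88594884, plus strand) binds Dishevelled, the adaptor that relays the receptor signal. It had 1.41, 3.14, 2.45, 3.93 and 0.956 CPM in WT lines 1, 2, 5 and 6 and NAIVE, 0.247, 0.312, 0.131 and 0.696 in EN15d, EN4d, EN_M and EN_F, and 84.05, 200.0, 269 and 309.6 in Apc lines 1, 2, 5 and 6. The order was P-Rspo3, WT, Apc, with no library out of place. Nkd1 rose by 6.48 in log2 (SE 0.47, adjusted p = 9.36e-07, edgeR) from WT to Apc and by 9.29 (SE 0.58, adjusted p = 1.91e-06) from P-Rspo3 to Apc.

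Its paralog Nkd2 (ENSMUSG00000021567, chr13:73818534-73847631, minus strand) had 0 to 4 counts in WT. It had 1 to 7 in P-Rspo3, and 2 to 10 in the Apc libraries. The groups overlapped, and only summed counts can be compared. The ratio was 2.31 (95% exact interval 1.06 to 5.41, 24 against 10 counts) for Apc over WT and 2.23 (0.975 to 5.40, 18 against 10 counts) for P-Rspo3 over WT, with intervals that hold counting error but no spread between libraries.

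In the nucleus, Sp5 (ENSMUSG00000075304, chr2:70474923-70477729, plus strand) is a zinc finger factor that represses Wnt targets. It had 8.55, 9.71, 8.02, 9.21 and 4.71 CPM in WT lines 1, 2, 5 and 6 and NAIVE, 1.23, 0.520, 3.02 and 3.04 in EN15d, EN4d, EN_M and EN_F, and 34.4, 66.9, 70.8 and 66.0 in Apc lines 1, 2, 5 and 6. The 3 groups again did not overlap, and Apc line 1 was low among the Apc libraries. The library NAIVE_F, in no group but P-Rspo3 by its genotype field, was at 4.78 CPM, just above NAIVE. Sp5 rose by 2.87 in log2 (SE 0.25, adjusted p = 3.08e-06, edgeR) from WT to Apc and by 4.92 (SE 0.49, adjusted p = 2.87e-05) from P-Rspo3 to Apc.

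**Figure D2:**
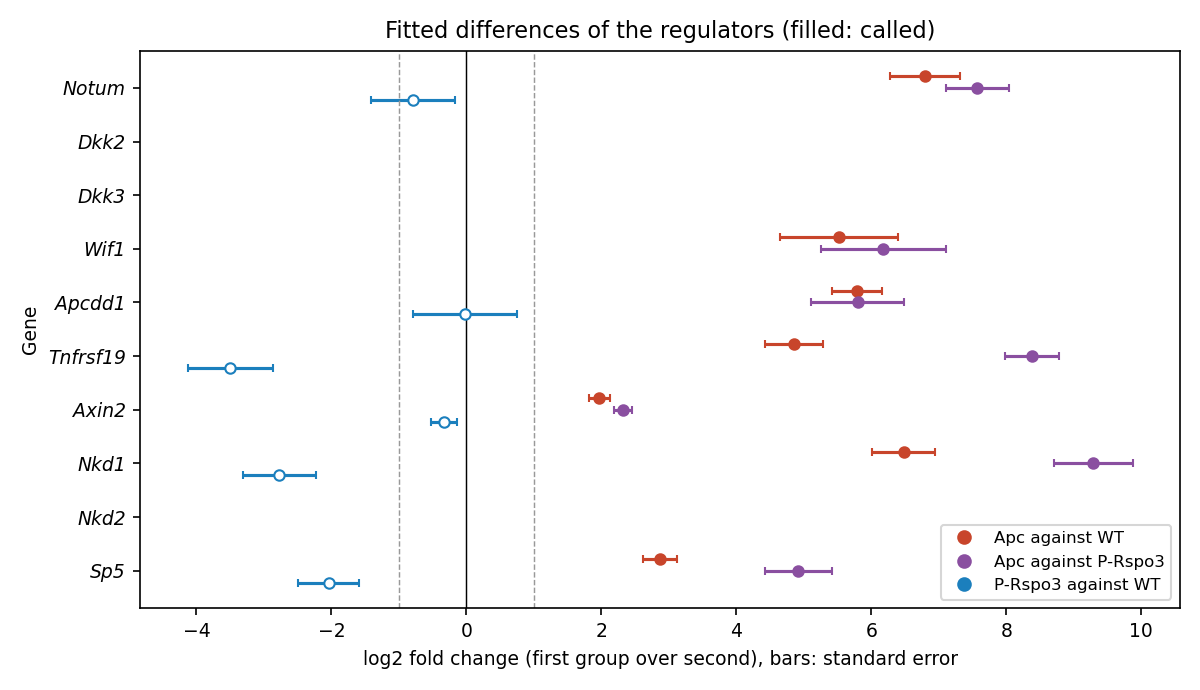
Fitted log2 fold change with its standard error for the regulators in the 3 comparisons (edgeR). Filled points are called, open points are not, and dashed lines mark a log2 fold change of 1 in either direction. Dkk2 and Dkk3 are left out, since their fitted values against groups at or near 0 counts depend on the prior count, and Nkd2 was not tested. The points of P-Rspo3 against WT lie at or below 0, and none is filled.

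P-Rspo3 against WT set organoids with the fusion, in EN without RSPO1, against WT organoids in ENR with added RSPO1. It does not compare a raised R-spondin with none. An effect of the fusion on the feedback genes cannot be told apart from that of the medium. Rspo3 itself had 539 to 1079 counts in P-Rspo3 and at most 1 in WT. It was the only gene called in either direction (called higher 0.00625%, called lower 0.00% of 15992 genes). Ptprk, the fusion partner, was at 62.0, 107.7, 63.6 and 55.6 CPM in EN15d, EN4d, EN_M and EN_F, and at 108.0 to 147.5 in WT. EN4d thus lay close to WT for Ptprk. It also had the lowest Rspo3 of the 4, at 18.7 CPM against 31.8 to 34.4. EN4d was the lowest of the 4 for Sp5 and Tnfrsf19, but not for Nkd1. The labels used here do not say whether EN4d and EN15d are days in EN. Of the 10 regulators, 6 were tested and none was called by edgeR, but 3 had an unadjusted p under 0.05, and all 3 were lower in P-Rspo3: Nkd1, Sp5 and Tnfrsf19. The fitted value was below 0 for 6 of 6, as it was for 47.5% of all genes. The background of lower genes at this unadjusted threshold was 7.03%. Dkk2, Dkk3, Wif1 and Nkd2 fell short of the filter. Nkd1 passed it with 5 WT libraries and 1 P-Rspo3 library.

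Tnfrsf19 had the largest difference, with a log2 fold change of -3.50 (SE 0.63, adjusted p = 0.0957, edgeR). Nkd1 followed with -2.77 (SE 0.54, adjusted p = 0.0957), and Sp5 had -2.04 (SE 0.45, adjusted p = 0.124). In each of these genes all 4 P-Rspo3 libraries were below all 5 WT libraries, which was so for 2.53% of all genes tested. Counting NAIVE_F as P-Rspo3, as its genotype field says, would end this for Sp5 but not for Nkd1 or Tnfrsf19. The 3 genes were picked by their unadjusted p in these same libraries, so this separation is not further support. For Axin2 the value was -0.33 (SE 0.19, adjusted p = 0.471) and for Notum -0.79 (SE 0.62, adjusted p = 0.627), in both with overlapping libraries.

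Whether the 3 genes were called in these counts depended on the tool and on NAIVE. The paper, which used DESeq2, names Nkd1 among the genes significantly lower in P-Rspo3 organoids. It also reports qRT-PCR for each of those genes. DESeq2 called all 3 lower, Nkd1 at -2.79 (adjusted p = 5.66e-05), Tnfrsf19 at -3.51 (adjusted p = 5.66e-05) and Sp5 at -2.04 (adjusted p = 0.00029), against 1.08% of genes called lower by that tool. Without NAIVE, edgeR also called all 3, Nkd1 at -2.98 (adjusted p = 0.0119), Tnfrsf19 at -3.76 (adjusted p = 0.00266) and Sp5 at -2.18 (adjusted p = 0.0391), against 0.635% of genes. With all 3 groups in 1 fit, Tnfrsf19 (adjusted p = 0.0183) and Sp5 (adjusted p = 0.0452) were called, against 0.362% of genes.

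NAIVE had the lowest WT value in each of the 3 genes and still lay above every P-Rspo3 library. A fit with the type of line as a term, in which NAIVE alone stands for WT of the transgenic background, gave -1.33 for Tnfrsf19, -1.48 for Nkd1 and -1.27 for Sp5 (adjusted p = 1.00 each, edgeR). This fit was added after the data were seen, and it called 0.0188% of genes lower. Over the 9 WT and P-Rspo3 libraries the log2 CPM of the 3 genes moved together, with Pearson's r of 0.932 for Sp5 and Tnfrsf19, 0.912 for Nkd1 and Tnfrsf19 and 0.806 for Nkd1 and Sp5. These points share group, medium and type of line, and the 3 genes were picked for a low p in them. The values describe these libraries only.

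**Figure D3:**
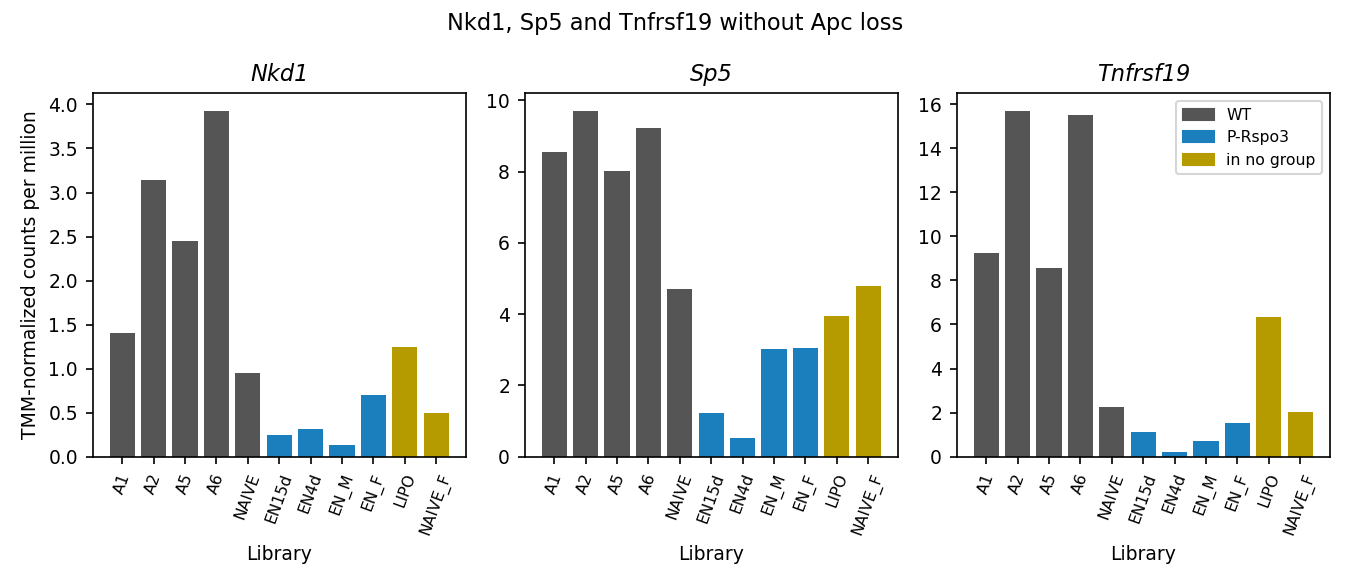
TMM-normalized CPM of Nkd1, Sp5 and Tnfrsf19 in each library with intact Apc. Bars are single libraries, coloured by group. LIPO and NAIVE_F are in no group, since the title NAIVE_F conflicts with its genotype and the title LIPO names none. NAIVE is the lowest WT bar in each panel and is higher than each of the 4 P-Rspo3 bars.

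The size of the change differed between members and, for some, between lines. Lines with the same number before and after deletion gave log2 ratios of CPM (with 0.5 added) that were close to each other for Tnfrsf19 (4.48, 4.32, 5.13 and 4.45 in lines 1, 2, 5 and 6, mean 4.6, SD 0.36). Axin2 gave 2.11, 2.09, 2.27 and 1.5 (mean 1.99, SD 0.34), where line 6 had the highest WT value. Nkd1 gave a mean of 5.97 (SD 0.45), Apcdd1 5.39 (SD 0.65), Notum 5.81 (SD 0.90) and Sp5 2.63 (SD 0.48). All of these lines moved upward. Wif1 (1.96, 2.35, 2.99 and 5.40) and Dkk3 (1.66, 1.18, 4.40 and 5.56) rose far more in line 6 than in lines 1 and 2, whereas Dkk2 (3.41, 1.56, 1.61 and 1.69) rose most in line 1. Dkk2 had no WT count, so its ratios follow from its Apc CPM and the 0.5 added. Dkk3 and Wif1, at 0 to 0.365 CPM in WT, also depend on that constant, as does Notum at 0.148 to 1.24. The sizes of these ratios are therefore not comparable with those of Axin2 or Tnfrsf19. Nkd2 gave 0.13, 0.06, 0.04 and 0.57, all of them on at most 10 counts in each library.

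**Figure D4:**
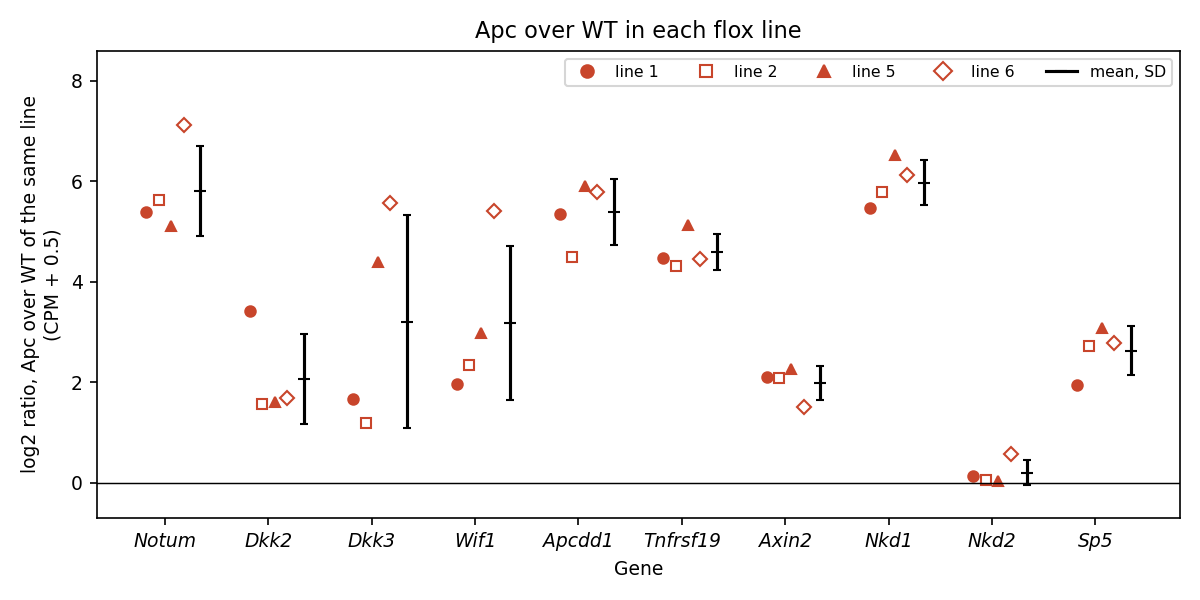
Log2 ratio of CPM (with 0.5 added) of each Apc library over the WT library of the same line number. Points are the 4 lines, and the bar beside them is the mean with its SD. The 4 points of Tnfrsf19 and of Axin2 lie within about a log2 unit of each other, while Dkk3 and Wif1 span more than 3 units. Where WT is at or near 0 CPM, as in Dkk2, Dkk3 and Wif1, the ratio depends on the 0.5 added.

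Within the Apc group the spread between lines differed from gene to gene. The coefficient of variation of CPM was 5.93% for Axin2, 19.4% for Tnfrsf19, 24.1% for Apcdd1, 28.4% for Sp5, 42.9% for Notum, 45.8% for Nkd1, 95.2% for Dkk2, 103% for Wif1 and 119.9% for Dkk3. Of the 9 genes called, 7 were lowest in line 1 and 7 were highest in line 6. Over the 2048 genes called higher in Apc against WT, 37.0% were lowest in line 1 and 41.0% were highest in line 6. Dkk2 went the other way and was highest in line 1. Apc lines 1 and 6 were close in depth, with total counts of 34840596 and 35528495.

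On the FPKM scale, which allows levels of different genes to be compared, Axin2 was the most abundant of the 10 in every group and did not overlap the next gene. Its level was 34.1 ± 10.4 FPKM (SD, n = 5) for WT, 28.3 ± 5.18 (SD, n = 4) for P-Rspo3 and 160.7 ± 11.1 (SD, n = 4) for Apc. In WT, Sp5 (3.20 ± 0.789) and Tnfrsf19 (1.74 ± 0.958) came next, then Notum, Apcdd1 and Nkd1 between 0.397 and 0.543 on average, and each neighbour in this order overlapped the next. The others of WT were below 0.1 FPKM on average. In P-Rspo3 the order after Axin2 was Sp5 (0.790 ± 0.497), Apcdd1 (0.536 ± 0.633), Notum (0.248 ± 0.105), Tnfrsf19 (0.147 ± 0.0878) and Nkd1 (0.0573 ± 0.0381), again with each overlapping the next.

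In Apc the order changed, and Tnfrsf19 (62.6 ± 12.8), Notum (60.2 ± 27.8), Nkd1 (42.9 ± 20.2), Apcdd1 (35.0 ± 8.25) and Sp5 (28.6 ± 7.97) followed Axin2. Neighbours among these 5 overlapped in range. Wif1 (3.77 ± 3.91), Dkk3 (2.60 ± 3.13) and Dkk2 (0.457 ± 0.431) formed a lower tier that did not overlap Sp5, and Nkd2 was last with 0.0434 ± 0.0238.

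The genes whose log2 CPM was most like that of Axin2 over the 13 libraries, among 12579 genes, were Snn (Pearson's r 0.994), Marcksl1 (0.993), Mvb12b (0.993), Gpsm1 (0.992) and Homer3 (0.991). Those most like Nkd1 were Adcy1 (0.992), Ctsl (0.991), Tspyl5 (0.989), Upk3a (0.987) and Dbn1 (0.987). Marcksl1, for example, averaged 30.2 CPM for WT, 18.2 for P-Rspo3 and 203 for Apc, and Adcy1 2.43, 0.893 and 55.2. The points share the group, the medium and the step between Apc and the other libraries.

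The pathway holds other inhibitors beyond these regulators. The list of 39 genes used here, called the other inhibitors below, is not limited to inhibitors. Sp8 was included as the paralog of Sp5, and Tcf7 as a target with a repressing short form. Of the 39, 38 were in the table and 24 were tested in Apc against WT. There 10, Tcf7 among them, were called higher and none lower by edgeR. The median log2 fold change was 0.61, against 0.001 over all genes tested. The background was 12.2% called higher and 14.1% called lower. At an unadjusted p under 0.05, 14 were higher and 4 lower (31.9% and 30.9% of all genes), and DESeq2 called 1 lower, Kremen2. Dact1, another Dishevelled-binding protein, rose by 6.0 in log2 (SE 0.42, adjusted p = 7.71e-07, edgeR), from 0.297 ± 0.128 CPM (SD, n = 5) to 20 ± 10.9 CPM (SD, n = 4). Tcf7l1, a TCF factor that mostly represses, rose by 4.69 (SE 0.31, adjusted p = 4.85e-07). Sfrp2, a secreted Wnt-binding protein, was called on very few reads, with 7 to 8 counts in each Apc library and 1 in all of WT (ratio 29.8, 95% exact interval 4.97 to 1215). These 3 passed the filter through Apc.

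Rnf43 and Znrf3, the ligases that remove Wnt receptors and that R-spondins act on, were measured well in every library. Rnf43 stood at 103 ± 16.1 CPM (SD, n = 5) for WT, 74.5 ± 12.9 (SD, n = 4) for P-Rspo3 and 413 ± 21.9 (SD, n = 4) for Apc, a log2 fold change of 1.99 (SE 0.11, adjusted p = 1.37e-07, edgeR) for Apc against WT. Znrf3 had 27.2 ± 5.01, 26.2 ± 2.4 and 84.5 ± 13.7 CPM, and rose by 1.61 (SE 0.14, adjusted p = 3.53e-06). Their fitted fold changes, like that of Axin2, were below those of the other regulators called, a difference between genes that was not tested. Some other genes called from the same list had values as small, the lowest at 1.19, so this was not particular to Rnf43 and Znrf3.

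In P-Rspo3 against WT, 21 of the other inhibitors were tested and none was called by edgeR, with 17 below 0 (47.5% of all genes were) and a median of -0.14, against 0.004 over all genes. At an unadjusted p under 0.05, 6 were lower (Sfrp5, Kremen2, Igfbp4, Rnf43, Ctnnbip1 and Tcf7) and none higher, and DESeq2 called only Sfrp5 lower. Over all genes 7.03% were lower at the unadjusted threshold and 1.08% were called lower by DESeq2. Rnf43 had -0.46 (SE 0.14, adjusted p = 0.195) and Znrf3 -0.05 (SE 0.13, adjusted p = 0.924). In Apc against P-Rspo3, 11 of 23 were called higher and none lower by edgeR (16 and 2 at an unadjusted p under 0.05, and none lower by DESeq2), with a median of 1.06. Among all genes 13.4% were called higher and 13.3% lower, and 31.0% were higher and 29.9% lower at the unadjusted threshold. Among those called, Dact1 rose by 6.48 (SE 0.48, adjusted p = 5.04e-06) and Sfrp5 by 5.18 (SE 1.13, adjusted p = 0.00337), the latter with Apc libraries from 0.371 to 23.9 CPM. Sfrp2 had no count in P-Rspo3, was at least 1.85-fold higher in Apc and takes no rank by fold. No P-Rspo3 library reached 0.1 FPKM for Dact1 or Sfrp2, and 1 did for Tcf7l1. These genes thus passed the filter through Apc.

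**Figure D5:**
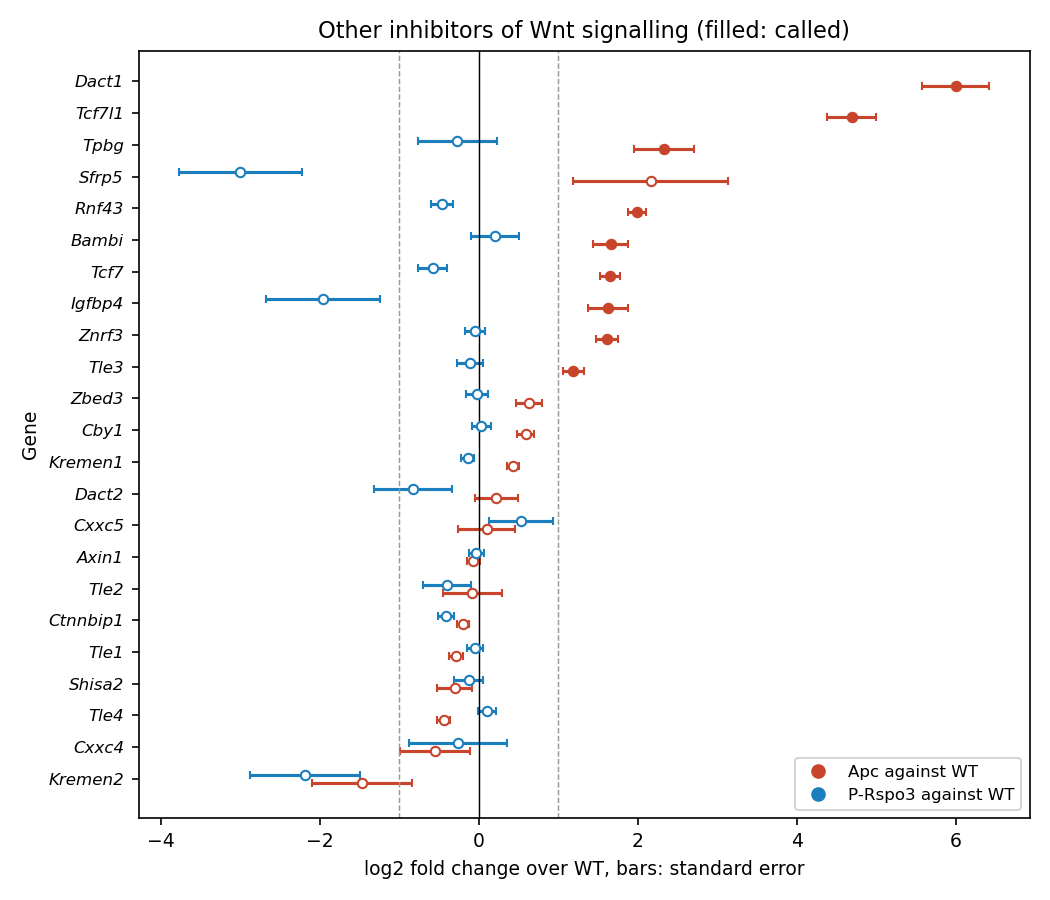
Fitted log2 fold change over WT with its standard error for the listed other inhibitors, Tcf7 included, that were tested in Apc against WT. Genes are ordered by the value in Apc against WT. Filled points are called and open points are not, and Sfrp2 is left out because WT held 1 count. The Apc points reach from Kremen2 on the negative side to Dact1 at 6.0, and no point of P-Rspo3 is filled.

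The makeup of the cultures moved with the Apc group. Total counts per library were 28902729 to 35528495. Summed FPKM of the 7 epithelial markers was 1400 to 1634 for WT, 1338 to 1633 for P-Rspo3 and 1560 to 1886 for Apc. Within that sum, counts of Cdx1 and Vil1 were lower in Apc than in WT, and those of Cdh1 and Krt18 were higher. Cdx1 had 241 to 429 counts in Apc and 3229 to 5953 in WT. The counts of Epcam, Krt8 and Cdx2 overlapped. Enterocyte markers ranged from 2952 to 8882 (WT), 1992 to 4567 (P-Rspo3) and 4.12 to 10.8 (Apc) in sum. Paneth cell markers ranged from 6097 to 9665, 3521 to 7898 and 631 to 1508. Of the 5 Paneth cell markers, Mmp7 went the other way. It had 893 to 1614 counts in WT, 641 to 1573 in P-Rspo3 and 3056 to 6458 in Apc. The 4 stem cell markers went both ways. Olfm4 was lower, with 18 to 148 counts in Apc against 31442 to 81939 in WT, while the other 3 were higher, Lgr5 with 12557 to 19131 against 3195 to 6487, Ascl2 with 2509 to 3179 against 514 to 1160 and Smoc2 with 17879 to 26996 against 5680 to 9673. Their sum, which Olfm4 dominates, was 260 to 382 FPKM in Apc, 553 to 1275 in WT and 491 to 876 in P-Rspo3. Markers of other cell types moved with the Apc group too. Of the 8 stromal markers, Col1a2, Col3a1, Dcn and Lum had at most 3 counts in every library, whereas Pdgfra had 54 to 73 counts in Apc and 0 to 9 elsewhere, and Pdgfrb had 0 to 8 in Apc and 18 to 145 elsewhere. The 3 endothelial markers summed to 1.17 to 2.04 FPKM in Apc and 0.122 to 0.474 elsewhere, but they did not move together. Cdh5 had 217 to 372 counts in Apc and 0 elsewhere, and Kdr had 0 throughout. Pecam1 went the other way, with 3 to 10 counts in Apc, 21 to 36 in WT and 18 to 32 in P-Rspo3. The 4 immune markers summed to 3.66 to 10.1 FPKM in Apc and 0.666 to 1.40 elsewhere, with Cd68 at 154 to 431 counts in Apc and 22 to 44 elsewhere and the leukocyte marker Ptprc at 0 to 2 in Apc and 0 to 24 elsewhere. The part of these shifts in the changes of the regulators was not tested, and in bulk RNA fewer cells of a type and less RNA per cell cannot be told apart. The count of Apc itself was higher in the Apc group (9265 to 10953) than in WT (4046 to 6810), and a count over the whole gene does not check the deletion of part of it.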

How the data were processed

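RNA was measured in 15 organoid libraries, of which 13 were grouped by their labels. After 2-pass STAR alignment to GRCm38, the authors deposited raw counts (HTSeq 0.6.0, whole numbers, not normalized) and FPKM (Cufflinks 2.2.1) for each Ensembl gene. The annotation release and strand setting are not given in the sources used here. Symbols and coordinates came from GENCODE on GRCm38, and 42462 genes had a symbol. The regulators and gene lists were chosen with earlier results of these data known.

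The raw counts entered the quasi-likelihood test of edgeR 4.0.16 on R 4.3.3 (TMM, glmQLFit and glmQLFTest at their defaults) in a separate fit for each pair of groups. Genes needed 0.1 FPKM in 4 or more libraries, the size of the smaller group. Calls needed a Benjamini-Hochberg adjusted p under 0.05 over all genes tested and an absolute log2 fold change above 1. CPM used TMM factors over all 15 libraries. Fits were tested on simulated data. Against a group with no count, a fold is a lower bound from a floor of 3 counts per library; other sparse ratios carry a 95% exact interval. Floors and intervals cover counting error only.

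Named genes were the 10 regulators, of the other inhibitors the 3 largest called changes by fitted value per direction and comparison with Rnf43 and Znrf3, and the 5 genes most like Axin2 and Nkd1 with a mean of at least 1 CPM. Other inhibitors named as calls of another tool, or at an unadjusted p, were chosen after their values were seen. Alternatives were DESeq2 1.42.0 and its size factors, the newer edgeR test, other filters, limma 3.58.1 on log2(FPKM + 1) and log2(FPKM + 0.1), and a single fit of all groups. Others were leaving out each library, adding LIPO and NAIVE_F, the line number as a replicate block and the type of line as a term. Same-numbered Apc and WT libraries share a line by their titles. The deviations of same-numbered libraries from their group means correlated at 0.070 to 0.238 (12 other pairs, -0.207 to 0.145). Reads across the fusion were not analysed here.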

Additional observations from a re-analysis of the deposited data

Results flagged for a closer look

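Among the 28 groups of 4 or 5 libraries examined, 4 held a library far from the others, where chance picks about 1 in 20 groups. Axin2 was at 232 CPM in WT line 6 and at 125 to 149.9 in the other WT libraries. Dkk2 was at 4.81 CPM in Apc line 1 and at 0.971 to 1.11 in the other Apc lines. Sp5 was at 34.4 CPM in Apc line 1 and at 66.0 to 70.8 in the others. Dkk3 was at 0.0308 CPM in P-Rspo3 EN15d, which is 1 count, and at 0 in the others. A single count among zeros always stands out in this way, so the chance rate does not apply to Dkk3.

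In the 2 libraries that entered no comparison, Nkd2 was at 0.156 CPM in LIPO (4 counts) and 0.191 CPM in NAIVE_F (5 counts), above the WT range of 0 to 0.146.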

How the results depend on the processing

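In both comparisons with Apc the direction held for all 9 genes under every alternative, and 9 were called with each library left out. With a replicate block for the line number (lines 1, 2, 5 and 6, without NAIVE) 9 were called higher in Apc against WT, with Wif1 at 4.83 in place of 5.52, and the block ended no call of a regulator. Limma on log2(FPKM + 1) lost Dkk2 in both (0.50) and Dkk3 against P-Rspo3 (1.40). Dkk2 averaged 0.457 FPKM in Apc and 0 in WT and P-Rspo3, where adding 1 keeps the difference under the threshold of 1. For Dkk3 the cause was not tested. Limma on log2(FPKM + 0.1) called both genes.

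For P-Rspo3 against WT, DESeq2 called 3 regulators lower, all 3 groups in 1 fit called 2, and fits without 1 library called 0 to 3, the 3 without NAIVE. The other tools and filters called 0. With LIPO added to WT and NAIVE_F to P-Rspo3, as their genotype fields say, Nkd1 was at -2.54 and Sp5 at -1.55. When LIPO was counted as P-Rspo3 and NAIVE_F as WT, Nkd1 was at -1.98, Sp5 at -1.67 and Tnfrsf19 at -2.17. This exchange runs against the Rspo3 counts of 0 in LIPO and 729 in NAIVE_F. Apcdd1 turned from -0.02 to 0.05 under that exchange, to 1.34 with the type of line as a term, and ran from -1.21 to 0.42 as single libraries were left out (0.42 without WT line 2, 0.01 without WT line 6, 0.33 without EN4d and 0.33 without EN_M). The causes were not tested.

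Of the other inhibitors, calls lower in Apc against WT went from 0 to 1 with DESeq2, 1 without the FPKM filter, 2 with the adjusted p alone and 0 to 1 as single libraries were left out. In P-Rspo3 against WT DESeq2 called 1 lower. In Apc against P-Rspo3 1 was lower without the FPKM filter and 2 with the adjusted p alone.

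Over all genes, the adjusted p alone called 5028 higher and 4864 lower in Apc against WT (2048 and 2364 with the fold threshold) and 4719 and 4557 in Apc against P-Rspo3 (2209 and 2183). Limma on log2(FPKM + 1) called 1132 lower in the first and 1429 higher and 1122 lower in the second. P-Rspo3 against WT had 1 higher and 0 lower, 55 and 173 with DESeq2, 2 and 4 with the newer edgeR test, 2 and 11 without the FPKM filter, 11 and 63 with all groups in 1 fit, 2 and 3 with limma on log2(FPKM + 1), 2 and 2 on log2(FPKM + 0.1), 1 and 3 with the type of line as a term, and 166 and 100 without NAIVE. With at most 10 counts in any library, a difference in Nkd2 was not detectable beyond the intervals given.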

Other observations

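The title NAIVE_F conflicts with the genotype given for it, and the title LIPO names no genotype, so their values are given singly. LIPO, labelled dox naive and kept in ENR, had no count of Rspo3, and NAIVE_F, labelled P-Rspo3 and kept in EN, had 729. Nkd1 was at 1.25 CPM in LIPO, within the WT range and above each P-Rspo3 library, and at 0.497 CPM in NAIVE_F, within the P-Rspo3 range. Tnfrsf19 was at 6.33 CPM in LIPO, within the WT range, and at 2.03 CPM in NAIVE_F, between the P-Rspo3 and WT ranges. Sp5 was at 3.95 CPM in LIPO, between those ranges, and at 4.78 CPM in NAIVE_F, within the WT range. Axin2 was at 111.5 CPM in LIPO and 86.5 CPM in NAIVE_F, both below the WT range. Dkk2 had no count in either library, and Notum was at 0.665 CPM in LIPO and 0.383 CPM in NAIVE_F.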
